A study of Mus musculus with 11 samples.

Results

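Gastric tumours of 2 mouse genotypes were compared with each other: 4 samples labelled pChePS_GC and 3 labelled pCP_GC, which are 7 of the 11 array samples of the study. The other 4 samples are normal gastric epithelium (NGE) and served as the reference level. Mice of the pChePS_GC group carry Pdx-1-Cre and are Cdh1F/+ (a single floxed allele beside the wild-type one), with Smad4F/F and Trp53F/F, so that Smad4 and Trp53 are floxed on both alleles. Mice of the pCP_GC group carry the same transgene, Trp53F/F, and Cdh1F/F on both alleles, and their label lists no floxed Smad4. All 7 tumours, labelled as diffuse type, therefore share the Cre transgene and floxed Trp53, and NGE came from mice without the transgene (written Pdx1-1-Cre-negative in the labels). The 2 tumour genotypes differ in floxed Smad4 and in the number of floxed Cdh1 alleles, and these 2 differences cannot be told apart. Cre under the Pdx-1 promoter acts in cells that express Pdx1 or descend from them, in the stomach mainly those of the antrum, and also in the pancreas and duodenum. The labels give no treatment and no statement that each sample is its own animal, and every p-value here therefore refers to sample-to-sample spread, which may be technical. The comparison covers 19938 genes, each read by 1 probe set that carries exactly 1 gene symbol, chosen as the one with the highest mean signal over the 11 arrays.

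Smad4 encodes the shared partner that the receptor-activated Smads of both the transforming growth factor beta (TGF-beta) and the bone morphogenetic protein (BMP) branches bind before they act on genes in the nucleus. In epithelium TGF-beta signals restrain growth and in many tumours also favour a mesenchymal state, with transcription factors such as Snai2 among the known targets. Cdh1 encodes E-cadherin, the adhesion protein of adherens junctions, whose loss is typical of diffuse-type gastric cancer. In gastric glands surface mucous cells, parietal cells and chief cells lie at different depths, above a mesenchyme that secretes BMP ligands.

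Signal is given on the log2 scale, on which a difference of 1 is a 2-fold change, and differences are pChePS_GC minus pCP_GC unless stated. Correlations across genes were 0.962 to 0.978 between pairs of pChePS_GC arrays, 0.972 to 0.988 between pairs of pCP_GC arrays and 0.960 to 0.979 between arrays of different tumour groups. None of the first 3 principal components of the 7 tumour arrays, which held 26.7%, 22.8% and 22.4% of their variance, separated the groups. As a check of the labelled tissue, the mean signal of 19 epithelial keratin and tight junction genes was 11.61 to 11.79 on the pChePS_GC arrays, 11.28 to 11.73 on the pCP_GC arrays and 10.900 to 11.11 on the NGE arrays. The mean signal of 14 parietal cell genes was 8.22 to 8.71 on the pChePS_GC arrays, 8.06 to 9.53 on the pCP_GC arrays and 11.900 to 12.18 on the NGE arrays. Xist read 11.54 to 12.66 in NGE and 5.57 to 6.02 in the 7 tumour arrays. The Y-linked gene Eif2s3y read 4.94 to 5.19 in NGE and 8.08 to 11.09 in the tumours. All 7 tumours therefore shared 1 pattern of sex-linked genes, low Xist with higher Eif2s3y, and NGE had the opposite one. Over the 4 sex-linked genes measured the median difference between the tumour groups was 0.65, or 0.12 without pCP_GC replicate 3. Dim signal was marked by 1190 odorant and pheromone receptor genes (Olfr and Vmn), most of which are silent outside sensory tissue, and the level that 95% of them stay under was 6.99 in pChePS_GC, 6.86 in pCP_GC and 7.24 in NGE.

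Of 19938 genes, 73 (0.366%) passed between the tumour groups at a limma adjusted p under 0.05 (Benjamini-Hochberg over all genes). In pChePS_GC 23 of them (0.115% of genes) were higher and 50 (0.251%) were lower. The genes that were higher included the metalloproteinase Mmp7, the lipopolysaccharide co-receptor Cd14, arginase Arg1, transferrin and hexokinase Hk2. Those that were lower included the ligand Bmp5, the transcription factor Snai2, the incretin receptor Glp1r and the matrix protein Abi3bp. The folds ran from 1.41 to 12.7, with 15 higher and 27 lower genes at 2-fold or more. Over all genes the median difference was 0.04, and 11526 differences were positive and 8412 negative. The 7 tumour arrays did not overlap between groups in any of the 73 genes. Selection by a small adjusted p on these same arrays favours this, so it is no separate support. Over all genes the groups did not overlap in 9.50% in the higher and 4.40% in the lower direction. At an unadjusted p under 0.05 there were 3294 genes (16.5%), 1937 higher (9.72%) and 1357 lower (6.81%).

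The fit takes its spread from all 11 arrays. With the 7 tumour arrays alone limma passed 0 genes (smallest adjusted p = 0.102), with 2530 genes at an unadjusted p under 0.05, among them all 73. Leaving out 1 NGE array left 31, 33, 26 and 28 genes (replicates 1 to 4). Without pCP_GC replicates 1, 2 and 3 in turn 30, 154 and 31 passed, and without pChePS_GC replicates 1 to 4 in turn 57, 86, 99 and 86. In these 11 fits the sign of all 73 genes was kept, and 13 genes passed in every one of them. The dimmer tumour group lay under that level of receptor genes in 15 of the 73 genes, so their folds are less certain.

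**Figure D1:**
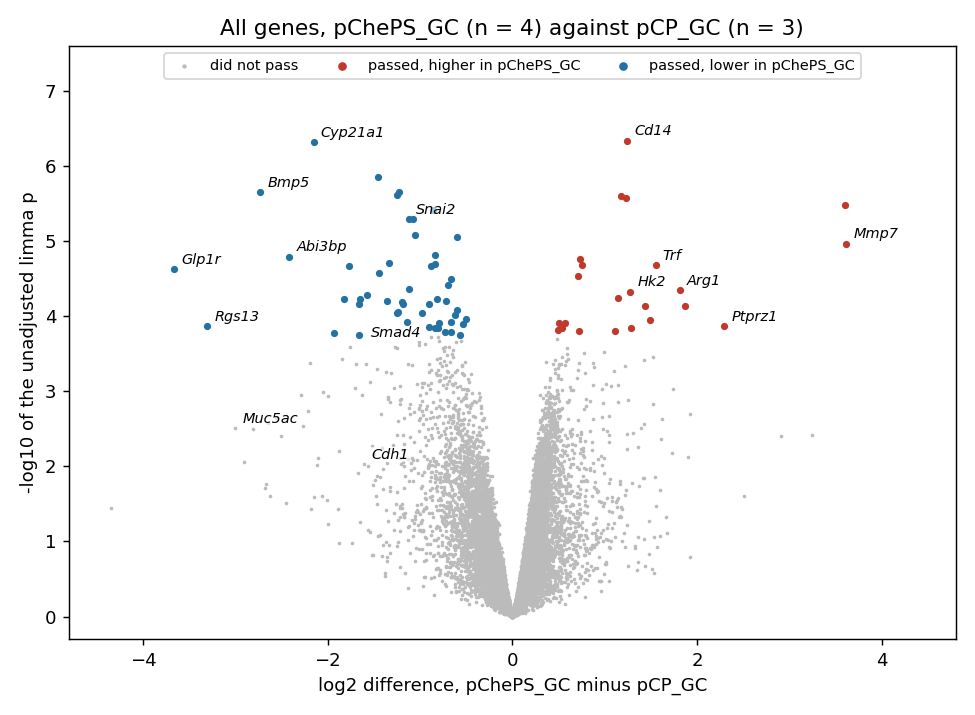
Each point is a gene, with the log2 difference pChePS_GC minus pCP_GC on the x axis and -log10 of the unadjusted limma p on the y axis. The 23 genes that passed and were higher (red) and the 50 that were lower (blue) lie above the grey genes, and Smad4 and Cdh1 lie among those that did not pass.

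The floxed genes did not pass. Smad4 read 10.18, 10.61, 11.02 and 10.17 in pChePS_GC, 11.43, 11.49 and 11.41 in pCP_GC and 11.16, 11.07, 11.05 and 11.07 in NGE. All 4 pChePS_GC arrays lay below all 3 pCP_GC arrays, but replicate 3 of pChePS_GC was close to NGE while replicates 1 and 4 were lowest. The difference was -0.95 (95% interval -1.34 to -0.56), with an adjusted p of 0.0585. Over all 35 arrangements of the 7 tumour arrays, exact permutation (two-sided) gave p = 0.0571, with 0.0286 the smallest it can give. Without pChePS_GC replicate 3 the difference was -1.12 with an adjusted p of 0.00704, the lowest over the alternatives, which reached 0.296. Cdh1 read 9.76, 11.07, 8.81 and 8.73 in pChePS_GC, 12.02, 11.06 and 10.52 in pCP_GC and 12.95, 12.94, 13.02 and 13.02 in NGE. Replicate 2 of pChePS_GC overlapped the pCP_GC arrays and the other 3 lay below them, although this genotype keeps 1 wild-type allele. The difference was -1.603 (95% interval -2.72 to -0.48, adjusted p = 0.183; exact permutation p = 0.143), and without pChePS_GC replicate 2 it was -2.10, with adjusted p = 0.0435 there and up to 0.423 in other alternatives. Where the probes lie relative to the floxed exons was not examined here, so neither signal checks the genotype labels.

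**Figure D2:**
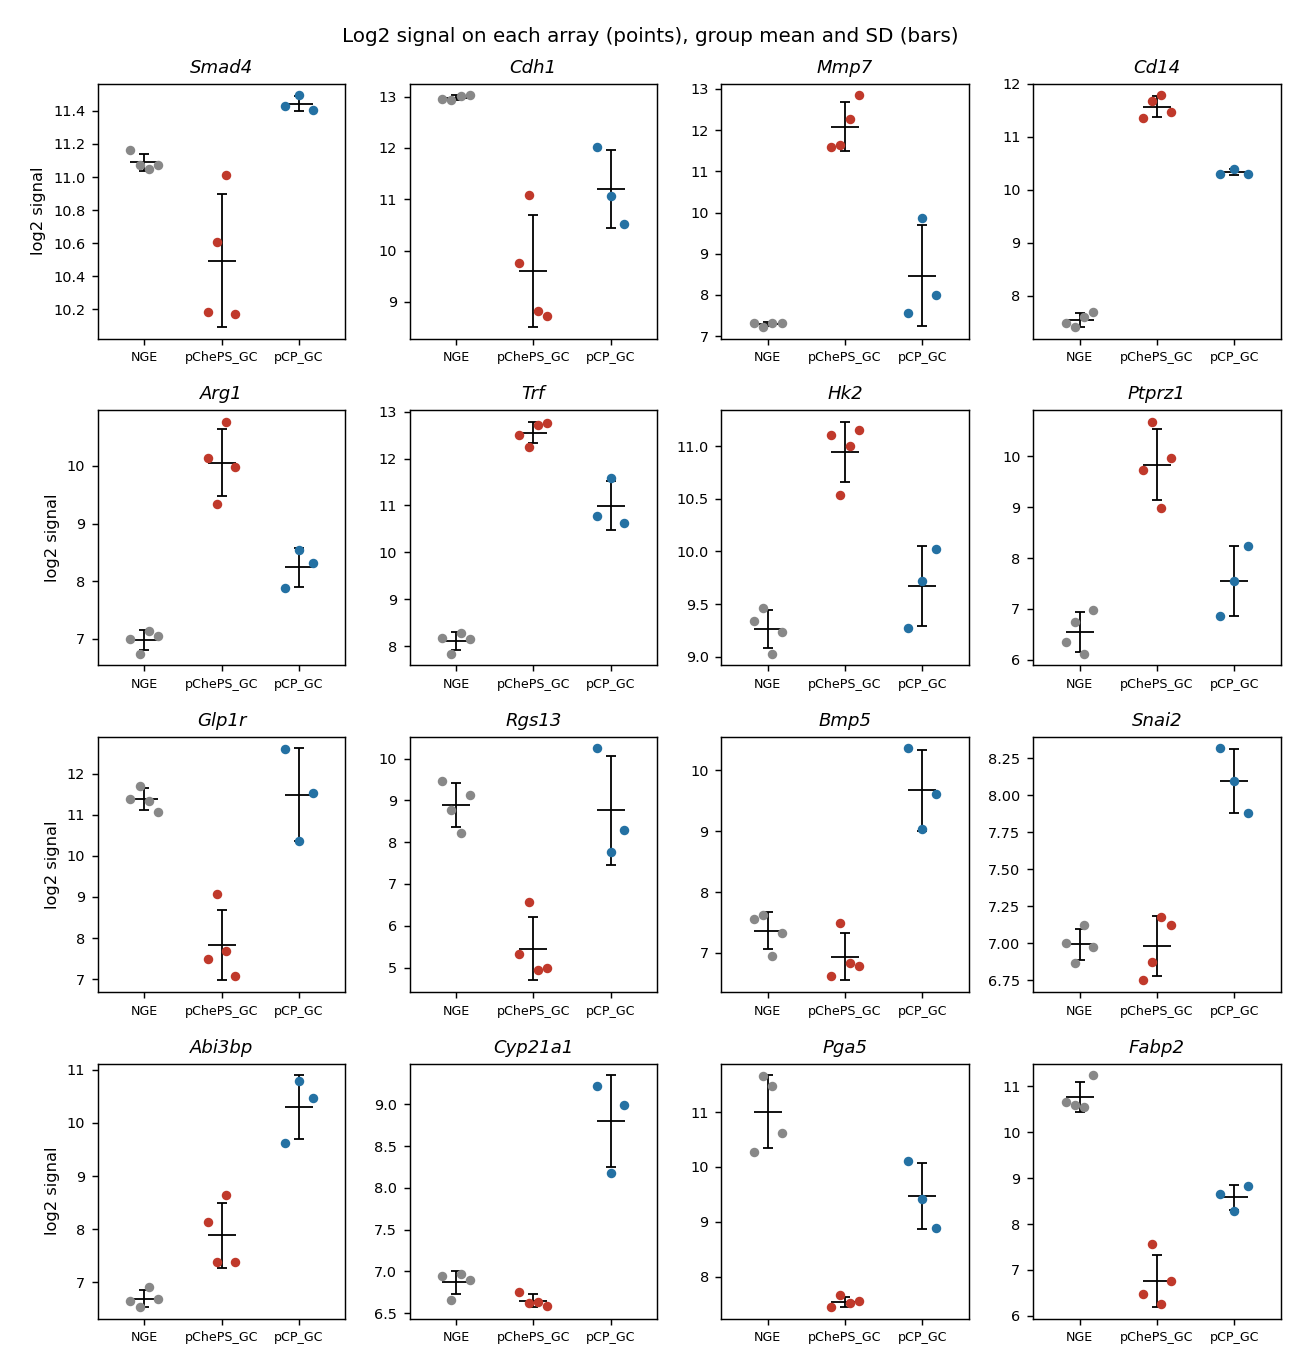
Log2 signal (y axis) of 16 genes on each array (points) in NGE, pChePS_GC and pCP_GC (x axis), with group means and SD as bars. For every gene shown other than Cdh1 the 4 pChePS_GC points do not overlap the 3 pCP_GC points.

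Among the genes that were higher, Mmp7 had the largest difference of a named protein-coding gene. Mmp7 encodes matrilysin, a metalloproteinase secreted by epithelial cells, and read 11.596, 11.63, 12.28 and 12.85 in pChePS_GC, 7.55, 9.86 and 7.997 in pCP_GC and 7.31, 7.22, 7.33 and 7.33 in NGE. All pChePS_GC arrays were far above NGE, whereas in pCP_GC replicate 2 was highest and replicates 1 and 3 lay nearer to NGE. The difference was 3.62 (SE 0.47, adjusted p = 0.0144), a 12.3-fold change. Ptprz1, a receptor tyrosine phosphatase, read 9.73, 10.68, 8.98 and 9.98 in pChePS_GC and 6.85, 7.56 and 8.23 in pCP_GC and differed by 2.296 (SE 0.40, adjusted p = 0.0444). Ptprr, another receptor tyrosine phosphatase, differed by 1.17 (SE 0.13, adjusted p = 0.00665), with the NGE mean (8.74) between those of pCP_GC (8.16) and pChePS_GC (9.33). Leaving out any 1 of the 11 arrays did not end the call of Ptprr. With 1 array left out, the call of Mmp7 was lost without pCP_GC replicate 3 (adjusted p up to 0.0597). That of Ptprz1 was lost without each NGE array, pChePS_GC replicates 1, 2 and 4 and each pCP_GC array (adjusted p up to 0.15). The other 16 measured metalloproteinase genes and inhibitors did not pass, with Mmp13, a collagenase, lowest at -1.51, and the median of the 17 was 0.14. Without pCP_GC replicate 1 that median was -0.06 and without replicate 2 it was 0.39.

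Cd14, Arg1, Trf, Ly6g2 and Stom were also higher. Cd14, which presents lipopolysaccharide to its receptor, read 11.35, 11.68, 11.79 and 11.47 in pChePS_GC, 10.29, 10.398 and 10.302 in pCP_GC and 7.48, 7.41, 7.602 and 7.700 in NGE. Cd14 varied little within each group, and the groups were ordered pChePS_GC, pCP_GC, NGE without overlap, with a difference between the tumours of 1.24 (SE 0.12, adjusted p = 0.00484). Arg1, the arginase of the urea cycle and of alternatively activated macrophages, read 10.13, 9.34, 10.77 and 9.99 in pChePS_GC and 7.88, 8.54 and 8.31 in pCP_GC, against 6.74 to 7.14 in NGE. Its difference was 1.81 (SE 0.28, adjusted p = 0.0288). Trf, which encodes the iron carrier transferrin, read 12.504, 12.25, 12.71 and 12.75 in pChePS_GC and 10.78, 11.59 and 10.63 in pCP_GC and differed by 1.55 (SE 0.22, adjusted p = 0.018). Ly6g2, of the Ly6 family of surface proteins, differed by 1.87 (SE 0.30, adjusted p = 0.0325). Stom, the membrane protein stomatin, differed by 0.75 (SE 0.11, adjusted p = 0.018). Leaving out any 1 of the 11 arrays did not end the call of Cd14. The call of Arg1 was lost without each NGE array, pChePS_GC replicate 1 and pCP_GC replicates 1 and 3 (adjusted p up to 0.0963). That of Trf was lost without pCP_GC replicates 1 and 3 (adjusted p up to 0.072). Ly6g2 lost it without each NGE array, pChePS_GC replicate 2 and pCP_GC replicates 1 and 3 (adjusted p up to 0.101). That of Stom was lost without pCP_GC replicate 1 (adjusted p up to 0.072). The 15 macrophage markers measured, Cd14 and Arg1 among them, had a median difference of 0.17, which was -0.11 without pCP_GC replicate 1 and 0.53 without replicate 2. Their mean signal was 9.74 to 10.41 on the pChePS_GC arrays, 9.29 to 10.43 on the pCP_GC arrays and 7.45 to 7.58 on the NGE arrays, so the tumour groups overlapped, and the part of macrophage content in these genes was not tested. In bulk tissue fewer cells of a type and less RNA per cell cannot be told apart.

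Hk2, Gda, Aldh1l1 and Cpt1a were higher as well. Hk2, which phosphorylates glucose at the entry to glycolysis, read 11.101, 10.53, 10.996 and 11.15 in pChePS_GC, 9.27, 9.72 and 10.03 in pCP_GC and 9.33, 9.46, 9.03 and 9.24 in NGE. All 4 pChePS_GC arrays lay above the other 7, and pCP_GC lay nearer to NGE, with a difference of 1.28 (SE 0.20, adjusted p = 0.0293). Gda, guanine deaminase, differed by 1.44 (SE 0.23, adjusted p = 0.0325). Aldh1l1, a folate enzyme, differed by 1.14 (SE 0.18, adjusted p = 0.0317), and NGE (10.45 to 10.75) was above both tumour groups. Cpt1a, which carries fatty acids into mitochondria for oxidation, read 12.28, 12.25, 12.36 and 12.25 in pChePS_GC and 11.89, 11.28 and 11.53 in pCP_GC and differed by 0.72 (SE 0.13, adjusted p = 0.0462). Replicates 2 and 4 of pChePS_GC hold exactly equal Cpt1a values. Of the genes outside the naming rule, chosen after their values were seen, Acads, which acts in short-chain fatty acid oxidation, differed by 0.51 (SE 0.09, adjusted p = 0.0435). Plin5, a lipid droplet protein of oxidative tissue, differed by 0.54 (SE 0.09, adjusted p = 0.0444). In Acads, Plin5, Aldh1l1 and Cpt1a the NGE mean was above both tumour means, and pCP_GC lay further from NGE. The call of Hk2 was lost without each NGE array, pChePS_GC replicate 1 and pCP_GC replicate 1 (adjusted p up to 0.0797). That of Gda was lost without each NGE array, pChePS_GC replicates 1, 2 and 4 and pCP_GC replicates 1 and 3 (adjusted p up to 0.0879). Aldh1l1 lost it without each NGE array and pCP_GC replicates 1 and 3 (adjusted p up to 0.0894). That of Cpt1a was lost without each NGE array, each pChePS_GC array and pCP_GC replicates 2 and 3 (adjusted p up to 0.112). Acads lost it without each NGE array, pChePS_GC replicates 1, 2 and 3 and each pCP_GC array (adjusted p up to 0.117). That of Plin5 was lost without each NGE array, each pChePS_GC array and each pCP_GC array (adjusted p up to 0.13).

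The remaining named genes that were higher have varied roles. Gstp3, a glutathione transferase of the pi class, read 7.94, 8.58, 8.48 and 8.14 in pChePS_GC and 7.06, 7.05 and 7.06 in pCP_GC and differed by 1.23 (SE 0.14, adjusted p = 0.00665). The 3 pCP_GC values were nearly equal and just under NGE (7.23 to 7.34). Prkg2, a cyclic GMP-dependent kinase, differed by 1.28 (SE 0.22, adjusted p = 0.0444), with pCP_GC under the receptor level. Arntl2, a clock transcription factor, differed by 1.11 (SE 0.20, adjusted p = 0.0465), and Myo15b, an unconventional myosin, by 1.49 (SE 0.25, adjusted p = 0.0435). The predicted gene Gm11545, which the rule leaves out, read 11.95, 11.97, 10.37 and 10.43 in pChePS_GC and 7.498, 7.501 and 7.73 in pCP_GC and differed by 3.61 (SE 0.42, adjusted p = 0.00736). Leaving out any 1 of the 11 arrays did not end the call of Gstp3 and Gm11545. The call of Prkg2 was lost without each NGE array, pChePS_GC replicates 1 and 3 and pCP_GC replicates 1 and 3 (adjusted p up to 0.166). That of Arntl2 was lost without each NGE array, pChePS_GC replicates 1, 2 and 3 and pCP_GC replicates 1 and 3 (adjusted p up to 0.15). Myo15b lost it without each NGE array, pChePS_GC replicates 1 and 4 and pCP_GC replicates 2 and 3 (adjusted p up to 0.112). Probe sequences were not used here, and Gstp3, Ly6g2, Pga5, Cyp21a1 and Pcdhb9 have close paralogs whose RNA could bind the same probes, so their identity is less certain.

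Glp1r had the largest fall of all genes that passed, and Bmp5 the largest fall among those that passed in all 11 fits with 1 array left out. Their promoter bases are printed to show the letters CAGAC, the half-site known to be bound by Smad proteins. Each run is the 250 bases before the RefSeq start in GRCm38.p6, 5′ to 3′ in the direction of the gene, and capitals mark CAGAC or its reverse complement GTCTG.
Bmp5, chr9:75775115-75775364, plus strand: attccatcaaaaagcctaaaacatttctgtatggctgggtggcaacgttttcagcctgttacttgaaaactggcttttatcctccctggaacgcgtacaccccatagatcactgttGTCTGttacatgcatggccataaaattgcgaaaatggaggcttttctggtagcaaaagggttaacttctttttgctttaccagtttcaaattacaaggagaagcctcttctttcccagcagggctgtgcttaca
Glp1r, chr17:30901617-30901866, plus strand: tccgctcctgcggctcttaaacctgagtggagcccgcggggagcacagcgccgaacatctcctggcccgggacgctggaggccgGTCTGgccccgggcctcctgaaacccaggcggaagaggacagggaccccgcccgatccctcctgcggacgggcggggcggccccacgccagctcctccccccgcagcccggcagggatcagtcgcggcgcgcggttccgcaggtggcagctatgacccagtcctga
Each of these promoters holds 1 match. Such a match is common: CAGAC or GTCTG was found in 42.2% of all 32851 RefSeq promoter windows of this length and in 39.4% of the 71 windows of 54 genes that passed. GTCTAGAC, the palindromic Smad site, was in 0.167% of all windows and in 1 of the 71.

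Bmp5, a secreted ligand of the BMP branch, read 6.62, 7.497, 6.84 and 6.79 in pChePS_GC, 10.36, 9.04 and 9.61 in pCP_GC and 7.56, 7.62, 6.95 and 7.33 in NGE. pChePS_GC overlapped NGE or lay below it, and the 3 pCP_GC arrays were above both, so the difference of -2.73 (SE 0.30, adjusted p = 0.00665) came with pCP_GC away from NGE (2.30) and pChePS_GC near it (-0.43). The pChePS_GC mean of Bmp5 was under the receptor level, so the size of this difference is less certain. Glp1r, the receptor of glucagon-like peptide 1, read 7.49, 9.07, 7.68 and 7.08 in pChePS_GC, 12.59, 10.35 and 11.53 in pCP_GC and 11.39, 11.71, 11.35 and 11.08 in NGE. Here pCP_GC lay on both sides of NGE (mean difference 0.11), and all pChePS_GC arrays lay below both groups, with a difference of -3.66 (SE 0.52, adjusted p = 0.0188). Rgs13, which turns off G protein signals and is known from tuft and mast cells, read 5.31, 6.57, 4.95 and 4.98 in pChePS_GC and 10.24, 7.75 and 8.28 in pCP_GC and differed by -3.305 (SE 0.57, adjusted p = 0.0444). NGE lay at 8.22 to 9.47 and pChePS_GC under the receptor level. Leaving out any 1 of the 11 arrays did not end the call of Bmp5. The call of Glp1r was lost without NGE replicate 3 and pCP_GC replicates 1 and 3 (adjusted p up to 0.0759). That of Rgs13 was lost without each NGE array, pChePS_GC replicates 1, 3 and 4 and pCP_GC replicates 1 and 3 (adjusted p up to 0.0888). The 15 measured mast cell and eosinophil markers had a median of -0.26 (0.03 without pCP_GC replicate 2) and 0 of them passed. Their mean signal was 6.896 to 7.95 on the pChePS_GC arrays, 7.63 to 8.17 on the pCP_GC arrays and 7.54 to 8.08 on the NGE arrays, and its part in the Rgs13 result was not tested.

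Further named genes that were lower were Abi3bp, Robo2, Scube1, Ccdc3, Clstn2 and Pcdhb9. Abi3bp, a protein of the extracellular matrix, read 8.13, 7.39, 8.63 and 7.38 in pChePS_GC, 9.62, 10.801 and 10.46 in pCP_GC and 6.63, 6.53, 6.900 and 6.69 in NGE. Both tumour groups were above NGE without overlap, pCP_GC more so, and the difference was -2.41 (SE 0.33, adjusted p = 0.018). Robo2, a receptor of Slit guidance proteins, read 7.52, 7.41, 7.64 and 7.303 in pChePS_GC and 9.51, 8.37 and 9.47 in pCP_GC and differed by -1.65 (SE 0.26, adjusted p = 0.0317), with pChePS_GC at the level of NGE (0.12). Robo1, a related receptor named after its values were seen, differed by -0.903 (SE 0.14, adjusted p = 0.0324). Scube1, a secreted protein, differed by -1.57 (SE 0.24, adjusted p = 0.0317), and Ccdc3, also secreted, by -1.33 (SE 0.19, adjusted p = 0.018). In Scube1 as in Robo2 only the pCP_GC arrays passed against NGE (log2 difference 1.60 in pCP_GC and 0.02 in pChePS_GC), while the pChePS_GC call against NGE missed the threshold. Clstn2, a calsyntenin, differed by -1.77 (SE 0.25, adjusted p = 0.018), and Pcdhb9, a protocadherin, by -1.66 (SE 0.27, adjusted p = 0.0324), with pChePS_GC under the receptor level. The call of Abi3bp was lost without pCP_GC replicate 3 (adjusted p up to 0.0699). That of Robo2 was lost without NGE replicates 1, 3 and 4, pChePS_GC replicates 1, 2 and 4 and pCP_GC replicates 1 and 3 (adjusted p up to 0.107). Robo1 lost it without each NGE array, pChePS_GC replicates 1 and 4 and pCP_GC replicate 3 (adjusted p up to 0.0861). That of Scube1 was lost without each NGE array, pChePS_GC replicate 2 and pCP_GC replicates 1 and 3 (adjusted p up to 0.095). Ccdc3 lost it without pCP_GC replicates 1 and 3 (adjusted p up to 0.0644). That of Clstn2 was lost without pCP_GC replicates 1 and 3 (adjusted p up to 0.0759). Pcdhb9 lost it without each NGE array, pChePS_GC replicates 1, 2 and 4 and pCP_GC replicate 1 (adjusted p up to 0.0693). The 19 fibroblast and collagen genes had a median of 0.12 between the tumours and 0 of them passed. The median was -0.25 without pCP_GC replicate 1 and 0.34 without replicate 2. Mean signal of the fibroblast list was 10 to 11.12 on the pChePS_GC arrays, 10.26 to 11.28 on the pCP_GC arrays and 7.76 to 7.96 on the NGE arrays, and its part in these genes was not tested. Dpt, dermatopontin, was the lowest fibroblast member at -2.81 (SE 0.74, adjusted p = 0.136), with 6.04, 9.87, 9.66 and 8.02 in pChePS_GC and 10.996, 11.46 and 11.15 in pCP_GC.

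Cyp21a1, Agt, Alb, Etv1 and Snai2 were lower too. Cyp21a1, the steroid 21-hydroxylase, read 6.76, 6.62, 6.64 and 6.58 in pChePS_GC, 9.23, 8.18 and 8.996 in pCP_GC and 6.95, 6.66, 6.97 and 6.89 in NGE. pChePS_GC was at the level of NGE and under the receptor level, and pCP_GC stood above both, with a difference of -2.15 (SE 0.20, adjusted p = 0.00484). Agt, angiotensinogen, read 7.73, 8.32, 8.33 and 7.78 in pChePS_GC and 9.84, 9.0 and 9.62 in pCP_GC and differed by -1.45 (SE 0.21, adjusted p = 0.0204). Alb, albumin, differed by -1.66 (SE 0.30, adjusted p = 0.0489), with pCP_GC replicate 3 (7.28) below NGE, replicates 1 and 2 above it and pChePS_GC under the receptor level. Etv1, an ETS transcription factor, differed by -1.36 (SE 0.22, adjusted p = 0.032). Snai2, a repressor of Cdh1 and a known TGF-beta target, read 6.75, 6.87, 7.18 and 7.12 in pChePS_GC, 8.32, 8.097 and 7.88 in pCP_GC and 7.004, 6.87, 7.12 and 6.98 in NGE. The Snai2 values of pChePS_GC and NGE overlapped, and pCP_GC lay above both, with a difference of -1.12 (SE 0.13, adjusted p = 0.00848). The Snai2 means of pChePS_GC and NGE were under the receptor level. Leaving out any 1 of the 11 arrays did not end the call of Cyp21a1 and Snai2. The call of Agt was lost without NGE replicate 3 and pCP_GC replicates 1 and 3 (adjusted p up to 0.0861). That of Alb was lost without each NGE array, each pChePS_GC array and pCP_GC replicates 1 and 2 (adjusted p up to 0.18). Etv1 lost it without each NGE array, pChePS_GC replicate 1 and pCP_GC replicates 1 and 3 (adjusted p up to 0.113).

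The NGE level was set beside both tumour means for the genes that passed. NGE and the tumours had opposite patterns of sex-linked genes, so tumour and sex cannot be told apart in any difference from NGE. NGE is also labelled epithelium and the tumours cancer tissue. The fibroblast list mean was 7.76 to 7.96 in NGE, 10 to 11.12 in pChePS_GC and 10.26 to 11.28 in pCP_GC. Tissue content thus cannot be told apart either, and for stromal genes a level near NGE does not show which tumour group moved. Of the 23 genes higher in pChePS_GC, NGE was below both tumour means in 13, between them in 6 and above both in 4. In 17 of the 23 (73.9%) NGE was nearer to pCP_GC, while over all 11526 genes with a positive difference the share was 30.5%. Among the 106 genes at least 2-fold higher, whatever the test, the share was 82.1%, so it was not particular to genes that passed. Of the 50 lower genes, NGE was below both in 18, between in 24 and above both in 8. In 34 of the 50 (68%) NGE was nearer to pChePS_GC, beside 55.3% of the 8412 genes with a negative difference. Among the 191 genes at least 2-fold lower, whatever the test, that share was 60.2%. Against NGE, 46 of the 73 passed in pChePS_GC and 49 in pCP_GC, where 42.1% and 51.8% of all genes passed. These counts use the same tumour and NGE arrays as the comparison of the tumours, so they describe it and do not test it.

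**Figure D3:**
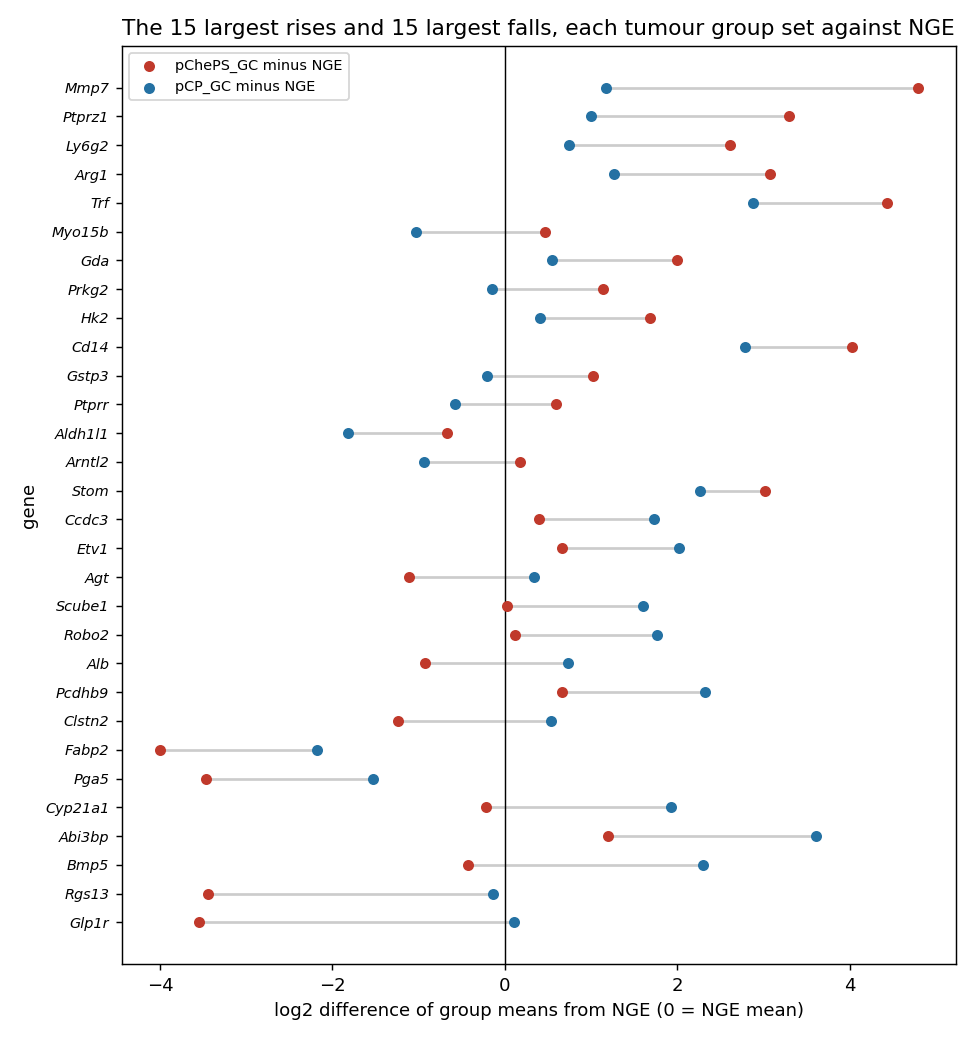
Log2 difference of each tumour group mean from the NGE mean (x axis, 0 is NGE) for the 15 largest rises and 15 largest falls (y axis), with the groups joined by a line. Glp1r and Rgs13 have pCP_GC near 0 and pChePS_GC below it, while Bmp5, Cyp21a1, Robo2 and Scube1 have pChePS_GC near 0 and pCP_GC above it.

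Gene lists of pathways and cell types were then described by counts and medians. Of the 780 list genes measured, 9 passed, 5 higher and 4 lower, beside 73 of all 19938 genes (0.366%). The lists were chosen with earlier results of these data known, so that count is no independent result. No member passed in 47 of the 55 lists. The sign of the median turned in 25 of the 55 lists when 1 array was left out, so medians near 0 have no settled direction. None of the 23 Smads and receptors of TGF-beta and BMP passed, and their median difference was -0.01. Smad4 was the lowest of them, and Bmpr1b, a BMP type I receptor, followed at -0.76 (SE 0.24, adjusted p = 0.185). Acvr1b, an activin type I receptor, was highest at 0.49 (SE 0.17, adjusted p = 0.21), and Smad3, a receptor-activated Smad, was at 0.29 (SE 0.13, adjusted p = 0.29). Of 25 ligands and antagonists only Bmp5 passed, with 13 positive differences and a median of 0.07. Bmp4, a second BMP ligand of the gastric mesenchyme, read 9.898, 9.66, 9.41 and 8.44 in pChePS_GC, 11.29, 10.54 and 11.303 in pCP_GC and 7.68, 8.15, 7.31 and 7.35 in NGE. The tumour groups of Bmp4 did not overlap and both lay above NGE, but the difference of -1.695 (SE 0.34, adjusted p = 0.0711) did not pass. Ltbp2, a binding protein of the latent TGF-beta family, was the highest ligand-list member at 1.08 (SE 0.47, adjusted p = 0.284), with pCP_GC replicate 2 (11.18) among the pChePS_GC values.

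Target genes of the pathway showed no common direction. Among 17 TGF-beta targets 9 differences were positive and 8 negative, 0 passed and the median was 0.01, or -0.23 without pCP_GC replicate 1. In both tumour groups the median of these targets lay above NGE by a similar amount, 1.61 in pChePS_GC and 1.59 in pCP_GC. Pmepa1, a feedback inhibitor of TGF-beta signals, read 12, 12.31, 12.08 and 12.33 in pChePS_GC, 12.504, 12.53 and 12.56 in pCP_GC and 11.56, 11.03, 11.22 and 11.15 in NGE. All pChePS_GC values of Pmepa1 lay between NGE and pCP_GC, with a difference of -0.35 (SE 0.13, adjusted p = 0.234), and Tgfbi, a secreted target, was at -0.37 (SE 0.28, adjusted p = 0.506). Of 16 BMP targets 6 were positive, 0 passed and the median was -0.04. Id1, an inhibitor of differentiation that BMP signals induce, was lowest at -0.695 (SE 0.33, adjusted p = 0.318), and Msx1 was highest at 0.44 (SE 0.11, adjusted p = 0.121).

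Of 19 genes of the epithelial to mesenchymal transition Snai2 alone passed, and the median was -0.11 with 13 negative differences. Cdh2, N-cadherin, did not overlap and was at 0.38 (SE 0.14, adjusted p = 0.222), and S100a4, a calcium-binding protein of motile cells, was at -0.603 (SE 0.16, adjusted p = 0.136). Of 19 cadherin complex genes 0 passed, the median was 0.05 and Cdh13 was highest at 0.62 (SE 0.40, adjusted p = 0.445). Epithelial keratins and tight junction genes had a median of 0.13 over 19 genes with 0 passed. Cldn3, a tight junction claudin, was highest at 0.99 (SE 0.55, adjusted p = 0.379) and Cldn1 lowest at -0.81 (SE 0.51, adjusted p = 0.437). The Cldn1 value turned to 0.03 without pCP_GC replicate 2, whose signal (9.40) was above all other arrays.

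The hypoxia and glycolysis list had the highest median among lists with at least 5 measured genes. Of its 18 measured genes Hk2 alone passed, 17 differences were positive, and the median was 0.55. The tumour groups did not overlap in 9 of the 18, all higher in pChePS_GC, beside 9.50% of all genes. Leaving out 1 array moved the median between 0.42 (without pChePS_GC replicate 1) and 0.68 (without pChePS_GC replicate 4). Bnip3, a mitophagy receptor, read 11.99, 10.17, 12.34 and 10.24 in pChePS_GC, 9.22, 9.46 and 9.099 in pCP_GC and 11.87, 11.52, 11.31 and 11.401 in NGE. The values of pChePS_GC split into replicates 1 and 3, above NGE, and replicates 2 and 4, below NGE, and all 4 exceeded pCP_GC by a mean of 1.93 (SE 0.48, adjusted p = 0.119). Slc16a3, a lactate exporter, read 11.35, 10.21, 11.400 and 10.36 in pChePS_GC and 9.29, 9.02 and 9.91 in pCP_GC with the same split and differed by 1.42 (SE 0.37, adjusted p = 0.129). Ndrg1, a hypoxia-induced gene, was at 0.97 (SE 0.22, adjusted p = 0.0938) and Slc2a1, the glucose transporter GLUT1, at 0.76 (SE 0.22, adjusted p = 0.167). Pgam1, Pgk1 and Pkm, enzymes of lower glycolysis, were at 0.59, 0.43 and 0.46 (adjusted p = 0.0667, 0.102 and 0.131). Pdk1, which diverts pyruvate from mitochondria, was at 0.75 (SE 0.22, adjusted p = 0.167). Car9, carbonic anhydrase 9, was the exception at -0.73 (SE 0.62, adjusted p = 0.571), with NGE (12.29 to 12.48) above both groups.

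The NGE mean lay between the tumour means in 9 of the 18 hypoxia and glycolysis genes, above both in 6 and below both in 3. The list's median against NGE was 0.08 in pChePS_GC and -0.49 in pCP_GC. The promoters of Hk2, Bnip3 and Slc16a3 are shown as list members that hold ACGTG, the core of the known hypoxia response element. It was found in 13 of the 17 measured list genes with a promoter window. Capitals mark ACGTG or its reverse complement CACGT, which overlap in Bnip3, in the 250 bases before the RefSeq start (GRCm38.p6).
Hk2, chr6:82774455-82774704, minus strand: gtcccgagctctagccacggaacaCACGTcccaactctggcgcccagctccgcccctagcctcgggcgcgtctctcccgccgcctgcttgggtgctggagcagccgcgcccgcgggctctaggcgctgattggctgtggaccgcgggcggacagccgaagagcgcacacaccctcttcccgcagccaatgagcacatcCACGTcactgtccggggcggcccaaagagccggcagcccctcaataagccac
Bnip3, chr7:138909507-138909756, minus strand: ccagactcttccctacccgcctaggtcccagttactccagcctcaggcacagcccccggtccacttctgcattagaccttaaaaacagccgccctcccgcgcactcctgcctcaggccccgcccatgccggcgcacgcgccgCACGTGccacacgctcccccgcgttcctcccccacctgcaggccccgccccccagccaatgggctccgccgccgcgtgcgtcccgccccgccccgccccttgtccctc
Slc16a3, chr11:120948817-120949066, plus strand: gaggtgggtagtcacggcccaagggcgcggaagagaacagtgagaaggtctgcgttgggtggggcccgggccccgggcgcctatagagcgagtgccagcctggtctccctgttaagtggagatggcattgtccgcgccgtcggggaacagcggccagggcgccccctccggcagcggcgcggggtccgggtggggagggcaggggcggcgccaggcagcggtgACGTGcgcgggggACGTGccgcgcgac
Each of the 3 promoters holds 2 matches, and those of Bnip3 are a single CACGTG read on both strands. ACGTG or CACGT was found in 58.3% of 24 windows of 17 measured list genes, in 16.6% of all 32851 windows and in 15.5% of the 71 windows of genes that passed. The list holds genes known as hypoxia targets, so its share is no independent result, and a match is a description of letters and not of binding.

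**Figure D4:**
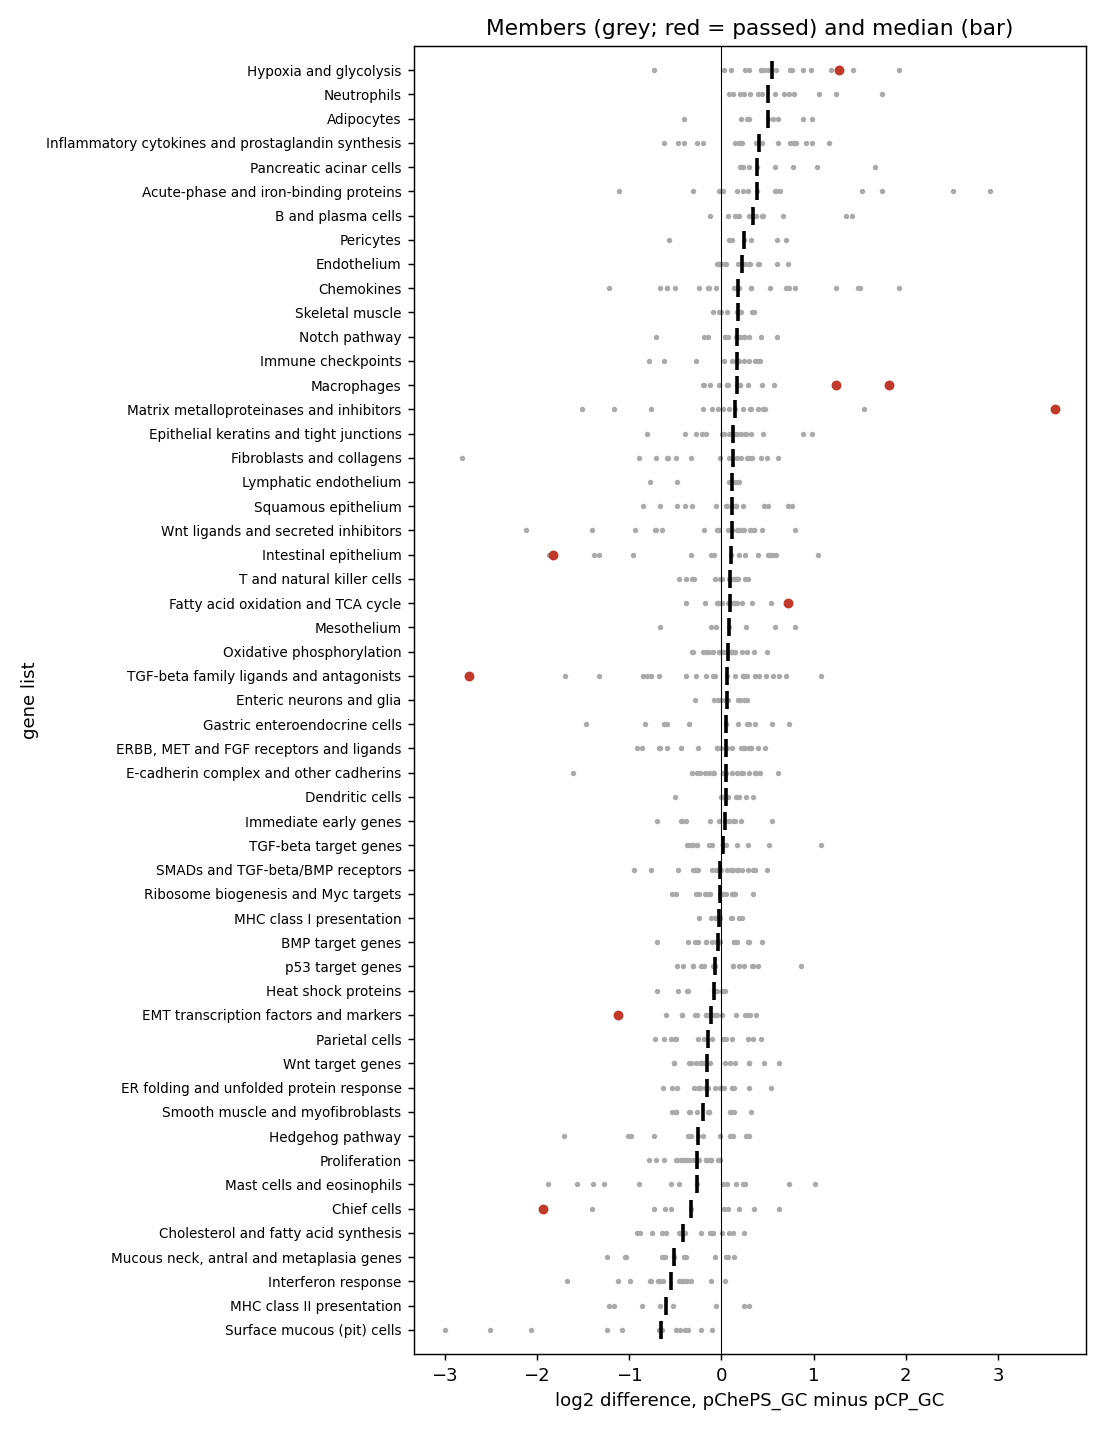
Log2 difference pChePS_GC minus pCP_GC (x axis) of each measured member (grey points, red where it passed) and the list median (black bar) for the lists with at least 5 measured genes (y axis), ordered by median. Hypoxia and neutrophil genes lie at the top (medians 0.55 and 0.51) and surface mucous genes at the bottom (-0.65).

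Medians of the other metabolic lists were smaller in size. The 17 genes of fatty acid oxidation and the TCA cycle had Cpt1a as the only member that passed and a median of 0.09. The 20 genes of oxidative phosphorylation had a median of 0.08 and 0 passed. Cholesterol and fatty acid synthesis genes had a median of -0.41 over 16 genes (-0.43 to -0.34 with 1 array left out), with 12 negative differences and 0 passed. The groups did not overlap in 4 that were lower and 1 that was higher, beside 4.40% and 9.50% of all genes. Mean signal of the list was 10.54 to 10.89 on the pChePS_GC, 10.98 to 11.1 on the pCP_GC and 10.61 to 11.01 on the NGE arrays. The tumour groups thus did not overlap. Hmgcs1, the synthase that begins the mevalonate pathway, read 10.98, 10.83, 10.19 and 10.67 in pChePS_GC and 11.47, 11.26 and 11.18 in pCP_GC, below NGE in both groups, and differed by -0.64 (SE 0.16, adjusted p = 0.125). Cyp51, a demethylase of sterol synthesis, was at -0.75 (SE 0.16, adjusted p = 0.0913) and Idi1, an isomerase of the same pathway, at -0.91 (SE 0.29, adjusted p = 0.184). Srebf1, a regulator of lipid synthesis, was highest at 0.24 (SE 0.21, adjusted p = 0.578).

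Lists of stomach cell types were next. All 14 surface mucous cell genes had a negative difference, 0 passed and the median was -0.65 (-0.82 to -0.50 with 1 array left out). The groups did not overlap in 4 of the 14, beside 4.40% of all genes. Muc5ac, the gel-forming mucin of these cells, read 7.44, 11.73, 8.22 and 10.300 in pChePS_GC, 12.35, 12.64 and 12.27 in pCP_GC and 14.29, 14.22, 14.28 and 14.28 in NGE. NGE and pCP_GC were narrow, and pChePS_GC spread widely, with replicates 1 and 3 lowest, and the difference of -2.998 (SE 0.79, adjusted p = 0.136) did not pass. Gkn1, a gastrokine, read 8.51, 12.97, 12.19 and 11.504 in pChePS_GC and 13.57, 13.52 and 12.98 in pCP_GC with replicate 1 of pChePS_GC far below the others and differed by -2.06 (SE 0.79, adjusted p = 0.242). Tff2, a trefoil peptide, differed by -0.65 (SE 0.16, adjusted p = 0.111) and Ctse, cathepsin E, by -0.22 (SE 0.08, adjusted p = 0.236). Mean signal of the list was 10.71 to 12.04 on the pChePS_GC arrays, 11.81 to 12.32 on the pCP_GC arrays and 13.400 to 13.42 on the NGE arrays. Of 13 mucous neck, antral and metaplasia genes 10 differences were negative, 0 passed and the median was -0.51, with Aqp5, a water channel of antral glands, lowest at -1.24 (SE 0.56, adjusted p = 0.306). Without pChePS_GC replicate 1 that median was -0.31.

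Chief cell genes included 1 that passed. Pga5, a pepsinogen, read 7.45, 7.67, 7.51 and 7.55 in pChePS_GC, 10.104, 9.42 and 8.89 in pCP_GC and 10.26, 11.65, 11.48 and 10.63 in NGE. The 4 pChePS_GC values were close together, pCP_GC was spread between them and NGE, and the difference was -1.93 (SE 0.34, adjusted p = 0.0466). The 11 chief cell genes had a median of -0.33, which turned to 0.12 without pCP_GC replicate 2. Fabp2, the intestinal fatty acid-binding protein, read 6.48, 7.56, 6.25 and 6.75 in pChePS_GC, 8.65, 8.28 and 8.82 in pCP_GC and 10.67, 10.598, 10.54 and 11.24 in NGE and differed by -1.82 (SE 0.29, adjusted p = 0.0317), with pChePS_GC under the receptor level. It was 1 of 17 intestinal epithelium genes, whose median was 0.10, and no other passed. Mean signal of the intestinal list was 7.99 to 9.91 on the pChePS_GC arrays, 8.61 to 9.65 on the pCP_GC arrays and 8.71 to 9.83 on the NGE arrays. The call of Pga5 was lost without NGE replicates 2, 3 and 4, each pChePS_GC array and each pCP_GC array (adjusted p up to 0.161). That of Fabp2 was lost without NGE replicates 1, 2 and 3, pChePS_GC replicate 1 and pCP_GC replicates 1 and 3 (adjusted p up to 0.104). Parietal cell genes had a median of -0.14 (0.29 without pCP_GC replicate 2) over 14 genes with 0 passed, between Kcnq1 at 0.43 (SE 0.24, adjusted p = 0.386) and the chitinase Chia1 at -0.72 (SE 0.82, adjusted p = 0.674). Squamous epithelium (17 genes) and enteroendocrine cells (13 genes) had medians of 0.12 and 0.05, and 0 passed in either.

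Pancreatic acinar genes were examined because Pdx-1-Cre also acts in the pancreas, which lies beside the stomach. All 9 measured had a positive difference, 0 passed and the median was 0.39. The groups of 4 of the 9 did not overlap, all higher in pChePS_GC, beside 9.50% of all genes. This was not particular to acinar genes: in 4 of 10 skeletal muscle genes the groups did not overlap either, all higher in pChePS_GC. Ctrb1, a chymotrypsinogen, read 11.59, 7.59, 8.71 and 7.89 in pChePS_GC and 7.42, 7.13 and 7.299 in pCP_GC, and replicate 1 of pChePS_GC was far above the rest. The difference in Ctrb1 was 1.66 (SE 0.74, adjusted p = 0.296), and Ptf1a, the acinar transcription factor, was lowest at 0.21 (SE 0.12, adjusted p = 0.399) and under the receptor level in both groups. The list's mean signal was 7.41 to 8.31 on the pChePS_GC arrays, 7.11 to 7.31 on the pCP_GC arrays and 7.68 to 7.83 on the NGE arrays. Its part in the genes that passed was not tested.

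**Figure D5:**
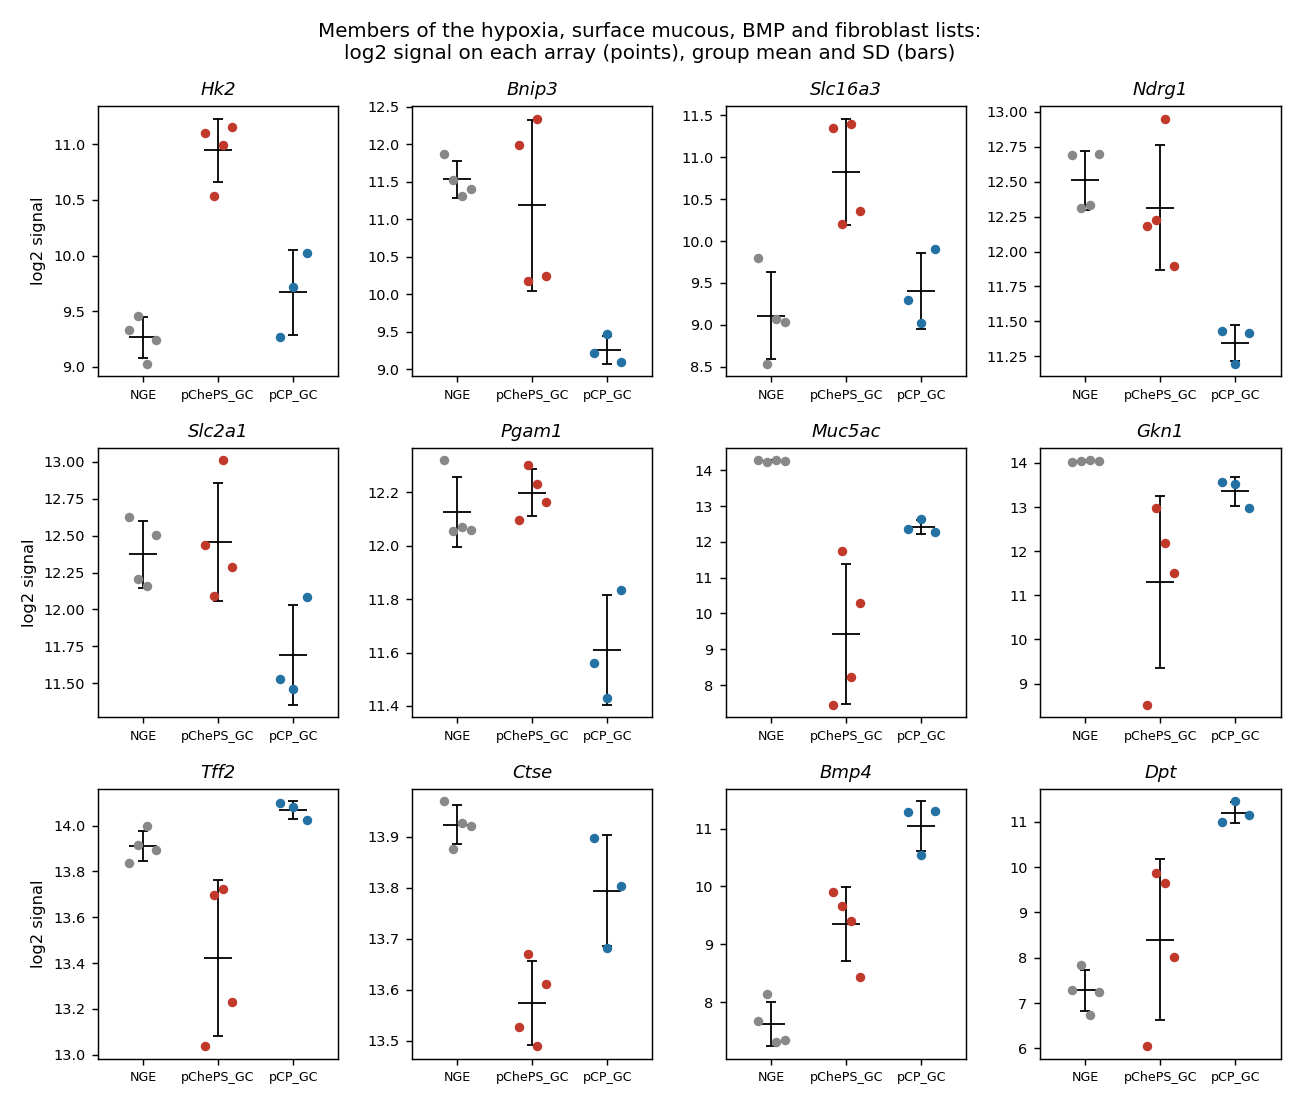
Log2 signal (y axis) of 12 list members on each array (points) in NGE, pChePS_GC and pCP_GC (x axis), with group means and SD as bars. In all 12 the tumour groups do not overlap, and Bnip3, Slc16a3, Muc5ac, Gkn1 and Dpt spread more among the pChePS_GC arrays than among the pCP_GC arrays.

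Immune lists had no member that passed apart from Cd14 and Arg1. All 14 neutrophil genes had a positive difference, the groups did not overlap in 5 (beside 9.50% of all genes), and the median was 0.51, which was 0.32 without pCP_GC replicate 1 and 0.92 without replicate 3. Lcn2, a siderophore-binding protein of neutrophils and inflamed epithelium, read 12.100, 11.39, 12.78 and 12.59 in pChePS_GC, 9.63, 10.57 and 11.23 in pCP_GC and 7.12, 6.97, 7.64 and 7.200 in NGE and differed by 1.74 (SE 0.39, adjusted p = 0.0938). S100a9, a calprotectin subunit, was at 1.25 (SE 0.34, adjusted p = 0.144), and Mmp8, the neutrophil collagenase, at 0.09 (SE 0.61, adjusted p = 0.957). Mean signal of the neutrophil list was 8.23 to 8.904 on the pChePS_GC arrays, 7.56 to 8.59 on the pCP_GC arrays and 6.83 to 6.98 on the NGE arrays, so the tumour groups overlapped. Lyz2, lysozyme of myeloid cells, was the lowest macrophage marker at -0.202 (SE 0.24, adjusted p = 0.694). Of 15 acute-phase and iron-binding genes 12 were positive, 0 passed and the median was 0.39, which was 0.17 without pCP_GC replicate 1. Reg3b, an antimicrobial lectin, read 12.48, 12.55, 12.91 and 13.52 in pChePS_GC and 7.86, 12.38 and 9.604 in pCP_GC, and the lowest pChePS_GC array exceeded pCP_GC replicate 2 only narrowly. The Reg3b difference was 2.92 (SE 0.80, adjusted p = 0.146), and without pCP_GC replicate 2 its adjusted p was 0.00532 (0.00532 to 0.33 over the alternatives). Saa3, an acute-phase serum amyloid, was lowest at -1.105 (SE 0.69, adjusted p = 0.433).

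Of 16 interferon response genes 15 had a negative difference, 0 passed and the median was -0.55. Mean signal of the interferon list was 7.59 to 8.26 on the pChePS_GC arrays and 8.025 to 9.47 on the pCP_GC arrays. The tumour groups thus overlapped, and pCP_GC replicate 3 was the highest array. The median was -0.94 without pCP_GC replicate 1 and -0.20 without replicate 3. Ifit3, an antiviral protein, read 7.94, 8.23, 6.65 and 7.199 in pChePS_GC and 8.08, 8.81 and 10.64 in pCP_GC, with replicate 3 of pCP_GC far above the other arrays, and differed by -1.67 (SE 0.56, adjusted p = 0.194). Stat2, which carries the interferon signal, and Ddx58, an RNA sensor, did not overlap and were at -0.42 (SE 0.13, adjusted p = 0.172) and -0.67 (SE 0.20, adjusted p = 0.172). Mx2 was the exception at 0.04 (SE 0.18, adjusted p = 0.922), a value whose sign turned under quantile normalization (-0.04). The 8 MHC class II genes had a median of -0.59 with 6 negative and 0 passed, from H2-Aa at -1.21 (SE 0.51, adjusted p = 0.272) to H2-Ob at 0.305 (SE 0.48, adjusted p = 0.775). That median was -0.96 without pChePS_GC replicate 2 and -0.30 without replicate 1. Chemokines had a median of 0.18 over 23 genes with 0 passed, or 0.01 without pChePS_GC replicate 4. Cxcl13, a B cell attractant, read 6.998, 11.72, 11.28 and 11.48 in pChePS_GC and 6.96, 11.58 and 6.799 in pCP_GC and was high on 3 of 4 and 1 of 3 arrays of the tumour groups, and its difference of 1.92 (SE 1.28, adjusted p = 0.458) did not pass, and Ccl11, eotaxin, was lowest at -1.22 (SE 0.55, adjusted p = 0.297). Inflammatory cytokines (20 genes, median 0.41) ran from Nos2, nitric oxide synthase, at 1.17 (SE 0.52, adjusted p = 0.293) to Il18 at -0.62 (SE 0.52, adjusted p = 0.566). That median was 0.23 without pChePS_GC replicate 4 and 0.79 without the dimmest 50% of genes. Medians of T and natural killer cells, B and plasma cells, dendritic cells, immune checkpoints and MHC class I genes were 0.09, 0.34, 0.05, 0.17 and -0.03, with 0 passed in each. The median of B and plasma cells was 0.14 without pChePS_GC replicate 2 and 1.36 without the dimmest 50% of genes.

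Most cell cycle genes had negative differences. All 23 measured genes of the proliferation list had a negative difference, the largest -0.78, and 0 passed. The median was -0.26 (-0.46 without pCP_GC replicate 2), while both tumour groups lay above NGE by medians of 1.04 and 1.496. The list's mean signal was 9.86 to 10.65 on the pChePS_GC arrays and 10.28 to 10.66 on the pCP_GC arrays. The tumour groups thus overlapped. Rrm2, a subunit of ribonucleotide reductase, read 9.28, 10.42, 9.98 and 10.33 in pChePS_GC and 10.79, 10.804 and 10.78 in pCP_GC and differed by -0.78 (SE 0.23, adjusted p = 0.17). Ccna2, cyclin A2, did not overlap either and was at -0.71 (SE 0.14, adjusted p = 0.0711). Outside the list, 5 genes that passed, all lower, were singled out after their values were seen, as cyclins, kinases or a centromere protein. Of all 73 genes that passed, 50 were lower. Pold4, a DNA polymerase subunit also named after its values were seen, passed the other way at 0.71 (SE 0.10, adjusted p = 0.0212). Pold4 kept its call in 9 of the 11 fits with 1 array left out. Plk4, the kinase of centriole duplication, read 8.88, 9.19, 8.901 and 9.06 in pChePS_GC and 9.86, 9.74 and 9.94 in pCP_GC and differed by -0.84 (SE 0.11, adjusted p = 0.018). Ccne2, cyclin E2, differed by -0.81 (SE 0.13, adjusted p = 0.0317) and Cdk2, its kinase, by -0.598 (SE 0.10, adjusted p = 0.0356). Ccnc, cyclin C, differed by -0.73 (SE 0.13, adjusted p = 0.0466), and Cenpp, a centromere protein, by -0.57 (SE 0.10, adjusted p = 0.0489), with pChePS_GC under the receptor level. Cenpp holds exactly equal values on replicates 1, 3 and 4 of pChePS_GC. The call of Plk4 was lost without pCP_GC replicates 1 and 3 (adjusted p up to 0.0699). That of Ccne2 was lost without NGE replicates 1, 3 and 4 and pCP_GC replicates 1 and 3 (adjusted p up to 0.109). Cdk2 lost it without each NGE array, pChePS_GC replicates 1, 2 and 4 and each pCP_GC array (adjusted p up to 0.118). That of Ccnc was lost without NGE replicates 1, 2 and 4, pChePS_GC replicates 1, 2 and 3 and each pCP_GC array (adjusted p up to 0.166). Cenpp lost it without each NGE array, each pChePS_GC array and pCP_GC replicates 1 and 3 (adjusted p up to 0.18).

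Another 7 genes that passed were named after their values were seen. B4galt4, a galactosyltransferase, read 8.38, 8.41, 8.77 and 8.67 in pChePS_GC and 10.07, 9.78 and 9.57 in pCP_GC, and both groups were above NGE (7.25 to 7.51). Its difference was -1.25 (SE 0.14, adjusted p = 0.00665). Chsy3, which builds chondroitin chains, differed by -1.23 (SE 0.14, adjusted p = 0.00665), with pChePS_GC at the level of NGE (0.14). St6galnac5, a sialyltransferase, differed by -1.12 (SE 0.17, adjusted p = 0.0288), and Ugt8a, which makes galactosylceramide, by -0.67 (SE 0.12, adjusted p = 0.0466). Cfi, the complement factor I protease, differed by -1.06 (SE 0.13, adjusted p = 0.0125), and Hhex, a homeobox factor of foregut development, by -1.08 (SE 0.13, adjusted p = 0.00848). Hhex values are exactly equal on replicates 1, 2 and 3 of pChePS_GC. Ppp1r36, a phosphatase regulator, differed by -0.85 (SE 0.10, adjusted p = 0.00761). Leaving out any 1 of the 11 arrays did not end the call of B4galt4, Chsy3, Cfi, Hhex and Ppp1r36. The call of St6galnac5 was lost without each NGE array and pCP_GC replicate 3 (adjusted p up to 0.0759). That of Ugt8a was lost without each NGE array, each pChePS_GC array and pCP_GC replicates 1 and 3 (adjusted p up to 0.18). The genes that passed and are not named had differences between -1.45 and 0.73.

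Signalling lists gave no member that passed. Hedgehog genes had a median of -0.25 over 13 genes (-0.47 without pCP_GC replicate 1 and -0.03 without replicate 2), from Smo, the signal transducer, at 0.304 (SE 0.22, adjusted p = 0.505) to Hhip, a decoy receptor and target, at -1.705 (SE 0.38, adjusted p = 0.0938). Hhip read 6.46, 6.83, 6.502 and 6.17 in pChePS_GC and 8.84, 8.796 and 6.95 in pCP_GC, with pChePS_GC at the level of NGE and replicates 1 and 2 of pCP_GC well above it, and without pCP_GC replicate 3 its adjusted p was 0.000305 (range over the alternatives 0.000305 to 0.308). Wnt ligands and inhibitors had a median of 0.11 over 21 genes, from Wnt10a at 0.800 (SE 0.28, adjusted p = 0.209) to the inhibitor Wif1 at -2.12 (SE 0.67, adjusted p = 0.183). Wif1 read 7.31, 7.74, 10.54 and 7.87 in pChePS_GC and 9.72, 11.56 and 10.18 in pCP_GC, and replicate 3 of pChePS_GC overlapped pCP_GC. Without that replicate the adjusted p was 0.0136 (0.0136 to 0.362 over the alternatives). The medians of Wnt targets, Notch and the ERBB, MET and FGF list were -0.16, 0.17 and 0.05. Those of p53 targets, unfolded protein response, ribosome biogenesis, immediate early and heat shock genes were -0.07, -0.16, -0.02, 0.04 and -0.07.

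Stromal and neighbouring tissue lists had 0 genes that passed. The medians were -0.20 for smooth muscle, 0.22 for endothelium, 0.25 for pericytes and 0.12 for lymphatic endothelium. Without pChePS_GC replicate 3 they were -0.51, -0.02, 0.06 and -0.43. They were 0.18 for skeletal muscle, 0.51 for adipocytes, 0.08 for mesothelium, 0.06 for enteric neurons and glia and 0.10 for erythroid cells. Mean signal of 9 adipocyte genes was 7.59 to 8.82 on the pChePS_GC arrays, 7.53 to 7.64 on the pCP_GC arrays and 8.298 to 8.44 on the NGE arrays, so the tumour groups overlapped. Replicate 2 of pChePS_GC alone exceeded NGE, while the other 3 pChePS_GC arrays and all pCP_GC arrays lay below NGE, and without that replicate the median was 0.19. Fap, the fibroblast activation protein, was the highest fibroblast member at 0.61 (SE 0.41, adjusted p = 0.458). Among mast cell genes Tpsab1, a tryptase, was highest at 1.02 (SE 0.75, adjusted p = 0.5) and the carboxypeptidase Cpa3 lowest at -1.88 (SE 0.79, adjusted p = 0.274).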

How the data were processed

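The data are Affymetrix array signals of 11 mouse stomach samples, deposited on the log2 scale as 1 value per probe set and sample (unit judged from the range). The submitters' processing notes name Affymetrix Expression Console. For its version, summary method and background correction, nothing is given in the sources used here, and correction sets the level of dim genes, so their folds are least certain. Precision is limited by how many arrays there are.

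Of 35556 probe sets, the platform annotation gave 1 gene symbol for 21789, several for 1621 and none for 12146. The genes with 1 symbol numbered 19938 after the probe set with the highest mean was kept, and 999 of them had more than 1 probe set. Names were checked against RefSeq (GRCm38.p6), where 21698 probe sets matched and 0 symbols changed.

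limma 3.58.1 (lmFit and eBayes) in R 4.3.3 fitted a mean for each group over the 11 arrays, with two-sided p-values, Benjamini-Hochberg adjustment over all genes and calls at an adjusted p under 0.05. The script was tested on simulated data. Exact permutation tests used the absolute difference of means. Lists were described by counts and medians, with no set test. Promoter bases came from RefSeq (GRCm38.p6) and 54 of the 73 genes that passed matched.

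Genes named are Cdh1 and Smad4, the 15 largest differences in each direction among genes that passed without overlap (predicted, non-coding and receptor segment models left out), and per list the members that passed (up to 4) or otherwise the highest and lowest. Other list members whose groups did not overlap, and genes said to be chosen after their values were seen, lie outside the rule. The members and lists were chosen with earlier results of these data known. Exactly equal values on several of the 11 arrays occur in 20.7% of genes and in 5 of the 73. Trp53 is not reported here as a measured gene. Alternatives were the variance prior, the groups fitted, normalization, filters on dim genes, the probe set summary, array weights, the replicate number, thresholds and each array left out. Other background corrections were not run, since only processed values were used here.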

Additional observations from a re-analysis of the deposited data

Results flagged for a closer look

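In groups of 4 arrays a value was picked out where its gap to the nearest of the others exceeded Dixon's 95% limit for the range, which chance does in about 1 of 20 groups. Among the genes that passed, Mmp7 was low on NGE replicate 2 (7.217, others 7.312 to 7.33), Gstp3 high on NGE replicate 1 (7.341, others 7.226 to 7.234) and Ppp1r36 low on NGE replicate 2 (7.113, others 7.42 to 7.481). Aldh1l1 was high on NGE replicate 2 (10.75, others 10.45 to 10.47) and on pChePS_GC replicate 1 (10.34, others 9.68 to 9.731). Pcdhb9 was high on pChePS_GC replicate 3 (6.006, others 5.355 to 5.435). Cenpp was high on pChePS_GC replicate 2 (6.459) and Hhex low on replicate 4 (7.353), and in both the other 3 arrays held exactly equal values (6.421 and 7.59), so the gap is the whole range.

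Among genes that did not pass, Cxcl13 was low on pChePS_GC replicate 1 (6.998, others 11.28 to 11.72), near the 2 low pCP_GC arrays. On pChePS_GC arrays, Ddx58 was low on replicate 1 (9.236, others 9.558 to 9.616), Ptf1a low on replicate 2 (6.586, others 6.724 to 6.745) and Mx2 low on replicate 4 (5.657, others 5.928 to 5.981). On NGE arrays, Pgam1 was high on replicate 1 (12.32, others 12.06 to 12.07), Hhip high on replicate 1 (6.679, others 6.515 to 6.536), Ctrb1 low on replicate 2 (7.653, others 7.863 to 7.898) and Cyp51 low on replicate 4 (10.59, others 10.9 to 10.93).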

How the results depend on the processing

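The count of 73 genes (23 higher, 50 lower) was 0 (0 and 0) with the 7 tumour arrays alone. Without the dimmest 50% of genes it was 31 (13 and 18), with array weights 188 (54 and 134), at an adjusted p under 0.1 215 (72 and 143) and with a 2-fold threshold 42 (15 and 27). Median centring passed 31 lower genes and quantile normalization 35 higher genes. Leaving out 1 array gave 26 to 154 genes in all, 7 to 51 higher and 17 to 103 lower. All 73 kept their sign in every alternative, 71 also passed with array weights, 64 with quantile normalization and 49 with median centring. Deviations of tumour samples with the same number had r = 0.153, 0.0329 and -0.0658 for replicates 1, 2 and 3. Tumour pairs with different numbers ran from -0.381 to 0.32. The same-number values lie within that wide range, so they cannot tell whether the numbers pair the samples. With the replicate number as a block 0 genes passed (0 higher, 0 lower; smallest adjusted p = 0.0502, 3263 genes at an unadjusted p under 0.05).

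Smad4 was -0.92 with an adjusted p of 0.0215 with array weights, and -1.12 to -0.84 with 1 array left out. The weighted fit gave NGE replicate 4 a weight of 5.30, beside 0.41 to 2.03 for the other arrays. With the 7 tumour arrays alone the adjusted p of Smad4 was 0.296. Cdh1 was -2.10 to -1.20 with 1 array left out. Among named genes, signs turned only in some that did not pass: Cldn1 (-1.27 to 0.027 with 1 array left out), Chia1 (0.22 with array weights, -1.39 to 0.52 with 1 array left out), Mmp8 (-0.18 with the replicate block, -0.45 to 0.63 with 1 array left out), Lyz2 (-0.35 to 0.015), Mx2 (-0.043 with quantile normalization, -0.055 to 0.12 with 1 array left out) and H2-Ob (-0.13 to 0.81). Of 1152 list medians recomputed, 8 moved beyond the spread. The causes of these changes were not tested.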

Other observations

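After Rgs13 and Cysltr2, a leukotriene receptor, were seen among the genes that passed, a list of 19 tuft cell genes was examined; tuft cells are chemosensory cells of the gastric and intestinal lining. Cysltr2 differed by -0.98 (SE 0.16, adjusted p = 0.0372). Rgs13 and Cysltr2 were the 2 genes of the list that passed, 15 of 19 differences were negative, and the median was -0.38. The mean signal of the list was 7.39 to 7.72 on the pChePS_GC arrays, 7.84 to 8.35 on the pCP_GC arrays and 8.01 to 8.29 on the NGE arrays. Without Rgs13 and Cysltr2, 13 of 17 differences were negative and the median was -0.28. The mean signal of these 17 was 7.64 to 8.02 on the pChePS_GC arrays and 7.97 to 8.37 on the pCP_GC arrays, so the tumour groups overlapped. Dclk1, a kinase that marks these cells, was at -0.92 (adjusted p = 0.109) and their transcription factor Pou2f3 at -0.43 (adjusted p = 0.261), while Il25 lay the other way at 0.39 (adjusted p = 0.17). Cysltr2 was under the receptor level in both tumour groups. The call of Cysltr2 was lost without each NGE array, pChePS_GC replicates 1, 2 and 3 and pCP_GC replicates 1 and 3 (adjusted p up to 0.123).

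A list of 15 genes of subepithelial mesenchyme, chosen after Bmp5 was seen, had 13 negative differences and a median of -0.80, with Bmp5 alone past the threshold. Its mean signal was 8.56 to 9.16 on the pChePS_GC arrays, 9.57 to 9.74 on the pCP_GC arrays and 8.03 to 8.27 on the NGE arrays. Without Bmp5 the median was -0.77, and the mean signal was 8.70 to 9.33 on the pChePS_GC and 9.57 to 9.69 on the pCP_GC arrays. The list then still held Bmp4 and Hhip, described above as lower without overlap, so its separation is partly built in. Of 54 ribosomal protein genes, examined after Rps9 and Rps14 were seen, these 2 passed, 46 differences were positive and the median was 0.16, beside 0.04 over all genes. The differences were 0.496 (SE 0.09, adjusted p = 0.0455) for Rps9 and 0.58 (SE 0.10, adjusted p = 0.0435) for Rps14. The groups of 19 of the 54 did not overlap, all higher in pChePS_GC, beside 9.50% of all genes. Rps9 passed in 0 of the 11 fits with 1 array left out and Rps14 in 1. Because these lists, and the alternative of leaving out the genes that prompted them, were chosen after seeing the data, none of them was tested.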
